A study of Mus musculus with 3 samples.

Results

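The Hox genes encode homeodomain transcription factors that lie in 4 chromosomal clusters, A to D, and are numbered 1 to 13 by paralog group. They were followed here as a family in embryonic mouse kidney. Kidneys carried the HoxB7-GFP transgene, in which Hoxb7 regulatory sequence marks the ureteric tree, the branching epithelium that becomes the collecting ducts, with green fluorescent protein. At 15.5 days post coitum (dpc) kidney cells of both sexes pooled were sorted by fluorescence into GFP+ and GFP- fractions. Amplified RNA of both fractions was hybridised together on each of 3 Compugen mouse oligonucleotide arrays, with no common reference and no recorded dye swap. The animals were otherwise labelled normal, and GFP+ cells are those in which the transgene is active, whereas GFP- cells are a mixture of every other kidney cell type. Values are log2 ratios of GFP+ over GFP-, so that 1 is a difference of 2-fold, and this direction is likely but rests on the order of channels in the labels, since the dyes are not stated.

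Members were all probes whose platform symbol is Hox followed by a cluster letter a to d and a number, with values on all 3 arrays. The array carried 35 such probes for 34 genes, out of 39 Hox genes in the RefSeq gene table. Values on all 3 arrays were deposited for 10 genes (Hoxa2, Hoxa4, Hoxa5, Hoxa11, Hoxb3, Hoxb5, Hoxb6, Hoxc4, Hoxc13 and Hoxd4), among 4399 probes with 3 values, which represent 3915 named genes. Another 4 genes had values on 2 arrays (Hoxa10, Hoxc9, Hoxd8 and Hoxd10), and Hoxd11 had 1 value. The other 19 genes had a probe but no value. They were Hoxa3, Hoxa6, Hoxa7, Hoxa9 and Hoxa13 in cluster A, Hoxb4, Hoxb7, Hoxb9 and Hoxb13 in cluster B, Hoxc5, Hoxc6, Hoxc8, Hoxc10 and Hoxc12 in cluster C, and Hoxd1, Hoxd3, Hoxd9, Hoxd12 and Hoxd13 in cluster D. Hoxb7, whose regulatory sequence gives the transgene its name, was thus not measured as an endogenous transcript. Hoxb3 had a second probe, also without a value. Of Hox probes 28.6% had values on all arrays and 57.1% had none, against 20.2% and 70.1% of all gene features.

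In vertebrate embryos Hox genes are expressed in an order that follows their position in the cluster: those of low paralog number reach furthest towards the head, and those of high number are restricted to posterior tissue. Hox proteins bind DNA with cofactors of the Pbx and Meis families, and retinoic acid, Polycomb and trithorax proteins regulate the clusters. In the kidney, the group 11 genes Hoxa11, Hoxc11 and Hoxd11 act together in metanephric mesenchyme, where they are required for outgrowth of the ureteric bud.

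Promoter windows are shown for Hox genes of opposite ratio. From RefSeq on GRCm38.p6, windows matched 9 of the 15 genes with any value: Hoxa2, Hoxa5, Hoxa10, Hoxa11, Hoxc4, Hoxd4, Hoxd8, Hoxd10 and Hoxd11. The 250 bases before the start are printed 5′ to 3′ on the gene's strand for Hoxd4 and Hoxc4, which share a paralog group, and for Hoxd8 and Hoxd10, which share a cluster. Hoxd4 and Hoxd8 had positive ratios and Hoxc4 and Hoxd10 negative ones. Capitals mark AGGTCA, the core sequence bound by nuclear receptors such as the retinoic acid receptors, or its reverse complement TGACCT.
Hoxd4 (GRCm38.p6, chr2:74721728-74721977, plus strand): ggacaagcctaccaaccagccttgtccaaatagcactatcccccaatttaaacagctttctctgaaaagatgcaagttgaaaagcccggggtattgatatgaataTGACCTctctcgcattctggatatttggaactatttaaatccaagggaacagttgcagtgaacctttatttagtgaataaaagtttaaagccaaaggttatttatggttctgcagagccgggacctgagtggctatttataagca
Hoxc4 (GRCm38.p6, chr15:103034145-103034394, plus strand): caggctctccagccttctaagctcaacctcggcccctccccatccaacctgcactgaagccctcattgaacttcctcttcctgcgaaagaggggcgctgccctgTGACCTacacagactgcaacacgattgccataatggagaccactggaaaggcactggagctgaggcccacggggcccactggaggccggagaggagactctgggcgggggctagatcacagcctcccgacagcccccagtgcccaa
Hoxd8 (GRCm38.p6, chr2:74704365-74704614, plus strand): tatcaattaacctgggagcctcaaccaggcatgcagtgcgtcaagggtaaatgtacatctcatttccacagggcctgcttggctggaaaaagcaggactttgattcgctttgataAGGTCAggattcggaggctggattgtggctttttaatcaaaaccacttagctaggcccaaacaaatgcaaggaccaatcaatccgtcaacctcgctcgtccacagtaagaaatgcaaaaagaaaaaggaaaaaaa
Hoxd10 (GRCm38.p6, chr2:74691641-74691890, plus strand): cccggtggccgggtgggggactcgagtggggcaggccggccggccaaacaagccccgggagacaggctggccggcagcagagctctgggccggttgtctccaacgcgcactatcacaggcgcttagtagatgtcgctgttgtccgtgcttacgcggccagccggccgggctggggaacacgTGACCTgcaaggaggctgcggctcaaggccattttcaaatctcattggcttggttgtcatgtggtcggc
The core sequence was searched on both strands and lay in 4 of the 11 Hox windows of these 9 genes (Hoxa10 and Hoxd11 have 2 each), against 14.02% of 32851 windows of all genes. The 4 windows printed are exactly these 4. A match in genes of both directions thus follows from which windows are shown, and says nothing about direction. Its first base was 145 bases before the start in Hoxd4, 146 in Hoxc4, 135 in Hoxd8 and 69 in Hoxd10. GC content was 40.4% in Hoxd4 and 44.4% in Hoxd8, and 62.0% in Hoxc4 and 65.6% in Hoxd10, with a median of 52.4% over all windows. The window of Hoxa5, which was lower in GFP+ cells, had 63.6%, and that of Hoxa2, which was mixed in sign, had 46.4%. Other negative genes did not all have GC-rich windows: Hoxa11 had 52.0%, the pair of Hoxa10 windows 51.6% and 59.2%, and the pair of Hoxd11 windows 44.8% and 60.4%. A match is a description of the letters in the window, not a site of binding.

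The 3 arrays were not alike. Over the 4399 probes, arrays 2 and 3 correlated with r = 0.879, but array 1 with r = 0.076 and 0.274 against them. Across the 10 Hox genes, which are not independent replicates, the values were 0.989 for arrays 2 and 3, and 0.610 and 0.625 for array 1. By their means, markers of sorted cells went with the labelled direction, apart from the cap mesenchyme marker Osr1 (0.17 ± 0.28), which did not pass. By limma, 2.78% of 3915 genes passed. All 4 measured ureteric epithelium markers of 18 listed rose, Cldn7 (2.36 ± 0.27) and Gata3 (2.35 ± 0.39) furthest. Lower were 3 of 6 measured cap mesenchyme markers (furthest Crym, -1.72 ± 0.59, and Wt1, -1.42 ± 0.37), 3 of 4 stromal (Mgp, -2.46 ± 0.62; Tcf21, -1.94 ± 0.35), 5 of 6 macrophage and leukocyte (Cd52, -2.84 ± 0.28; Fcer1g, -2.33 ± 0.56) and 2 of 3 erythroid (Hba-x, -2.22 ± 0.38; Alas2, -2.15 ± 0.07). None of the 6 endothelial markers passed (Ramp2, -0.96 ± 0.94; Emcn, -0.48 ± 0.37), with 2 at an unadjusted p below 0.05, as for 14.4% of all probes, nor did Tubb3 (-0.18 ± 0.52), the 1 nerve and glia marker measured. Because the GFP- fraction is a mixture, fewer cells of a type and less RNA per cell cannot be told apart in any ratio below.

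Hoxd4 and Hoxb3 were higher in GFP+ cells and Hoxa5 was lower, by between 1.92-fold and 2.59-fold. These 3 of 10 genes passed the threshold, a limma adjusted p below 0.05 over all 4399 probes. In the whole array 2.86% of probes passed, 1.32% higher and 1.55% lower. Besides these, Hoxb6 (1.96-fold higher) and Hoxc4 (3.35-fold lower) had means as large as those that passed but a wider spread for their size. The means of the 10 ran from -1.74 to 1.37 with a median of 0.114, beside 0.044 for all probes. Hoxd4, Hoxb6 and Hoxb3 lay above 98.5% or more of all probes, and Hoxa5 and Hoxc4 above 1.86% and 0.523%.

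**Figure D1:**
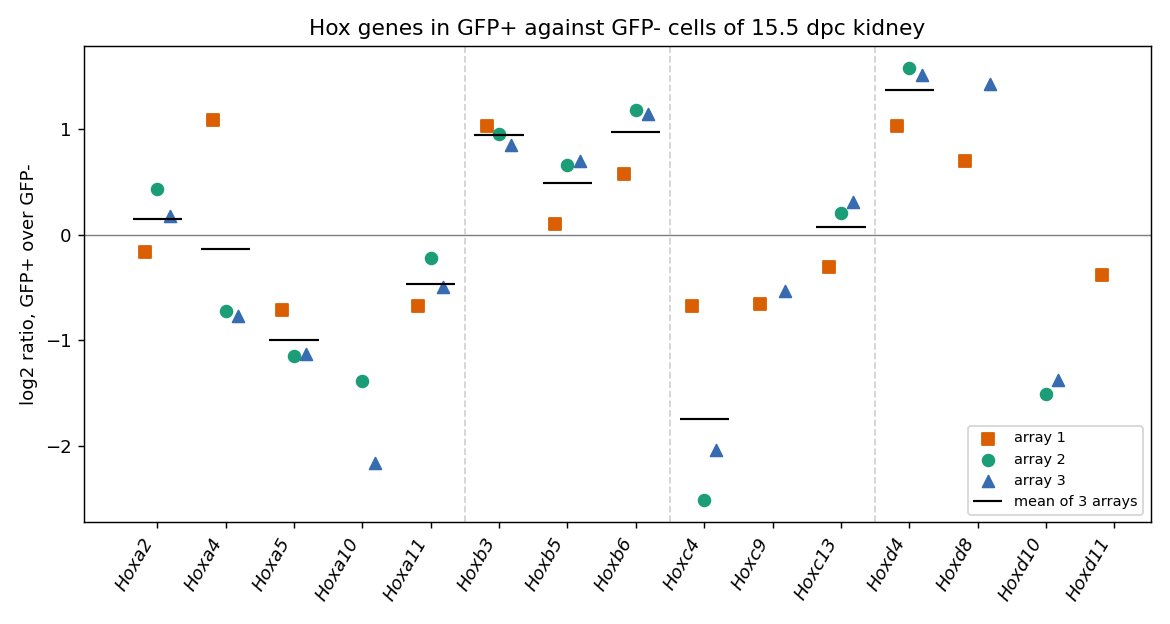
Log2 ratio of GFP+ over GFP- RNA (vertical axis) for the 15 Hox genes with a value, in order of cluster and paralog number, with a symbol for each array and a bar for the mean where all 3 arrays gave a value. The 3 Hoxb genes lie above 0 on every array, Hoxa4 lies at 1.09 on array 1 and below 0 on the others, and Hoxc4 reaches -2.51.

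The cluster B genes were positive throughout. Hoxb3 acts in hindbrain and neck patterning in the embryo, and its log2 ratios were 1.03, 0.95 and 0.85 on arrays 1, 2 and 3. These lay within 0.2 of each other, and the SD of 0.09 was the lowest of the 10 genes. Its mean of 0.94 ± 0.09 (SD, n = 3 arrays), or 1.92-fold, passed (limma adjusted p = 0.0375). Hoxb6, a gene of the middle of the cluster, had 0.58, 1.18 and 1.14. Array 1 was about 0.6 below the others, and with a mean of 0.97 ± 0.34 it did not pass (limma adjusted p = 0.0628). Hoxb5, its neighbour in the cluster, had 0.10, 0.66 and 0.70, again with array 1 lowest, and a mean of 0.49 ± 0.33 (limma adjusted p = 0.314). All 3 measured Hoxb genes were thus above 0 on all 3 arrays, as were 21.2% of all probes.

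Cluster D held both the highest mean and negative ratios. Hoxd4, which patterns the hindbrain and anterior vertebrae, had 1.03, 1.58 and 1.51 on arrays 1, 2 and 3. Every array showed it at least 2-fold higher in GFP+ cells, and its mean of 1.37 ± 0.30 (2.59-fold) passed (limma adjusted p = 0.0196). Hoxd8 had 0.70 on array 1 and 1.43 on array 3, both positive, with no value on array 2. Hoxd10, 2 paralog groups further along the same cluster, had -1.50 and -1.37 on arrays 2 and 3, both lower in GFP+ cells by over 2-fold. Hoxd11 had -0.38 on array 1 alone. Within this cluster the ratios were positive up to group 8 and negative from group 10, and on array 3, the 1 array with a value for both, Hoxd8 exceeded Hoxd10 by 2.81 on the log2 scale.

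In cluster A, Hoxa5, a regulator of lung and axial skeleton development, had -0.72, -1.15 and -1.13. All arrays were negative, and the gene, 1.99-fold lower by its mean of -0.996 ± 0.24, passed (limma adjusted p = 0.0419). Hoxa11, one of the group 11 genes of the kidney mesenchyme, had -0.68, -0.22 and -0.49, negative throughout but with a mean of -0.46 ± 0.23 that did not pass (limma adjusted p = 0.293). Hoxa10, beside it in the cluster, had -1.38 and -2.16 on arrays 2 and 3 and so was further from 0 than Hoxa11 on both. Hoxa2, which patterns the second branchial arch, had -0.16, 0.44 and 0.18, on both sides of 0, with a mean of 0.15 ± 0.30 (limma adjusted p = 0.735). Hoxa4 had 1.09, -0.72 and -0.77. Array 1 went against arrays 2 and 3, so that its mean of -0.13 ± 1.06 (limma adjusted p = 0.881) described none of them, and this SD was the highest of the 10.

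The lowest mean among the 10 genes belonged to Hoxc4 in cluster C, a gene also expressed in lymphoid cells, with -0.68, -2.51 and -2.04 on arrays 1, 2 and 3. It was lower in GFP+ cells on each array, by more than 4-fold on arrays 2 and 3, and its mean was -1.74 ± 0.95 (limma adjusted p = 0.0703). Leaving out any 1 array brought it past the threshold (limma adjusted p between 0.000704 and 0.00348 over the 3 fits). In the fits without arrays 1, 2 and 3, 46.3%, 3.07% and 1.89% of all probes passed. Without array 2 or 3, the Hox genes with the larger means ranked by adjusted p as by size of mean. The spread of Hoxc4 itself thus weighed little there, and its passing is no sign of even arrays. Hoxc9 had -0.66 and -0.53 on arrays 1 and 3. Hoxc13, best known from hair and nail, had -0.30, 0.21 and 0.31, with a mean of 0.075 ± 0.33 (limma adjusted p = 0.864). Marker medians of other cell types were negative too. Over the 6 of 11 macrophage and leukocyte markers measured, the median log2 ratio was -1.88, -1.93 and -1.95 on arrays 1, 2 and 3. It was -2.09, -1.73 and -1.50 over the 4 of 14 stromal markers, and -1.51, -1.03 and -1.11 over the 6 of 11 cap mesenchyme markers. Stroma and cap mesenchyme medians were lowest on array 1. The macrophage and leukocyte median was closest to 0 there, though nearly level over the 3 arrays. Hoxc4 and Hoxa5 were closest to 0 on array 1. Hoxa11 was lowest on array 1 (-0.68, against -0.22 and -0.49). Hoxc9 was also lower on array 1 than on array 3. The part of these cells in the ratios of Hoxa5, Hoxc4 and the other negative genes was not tested.

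**Figure D2:**
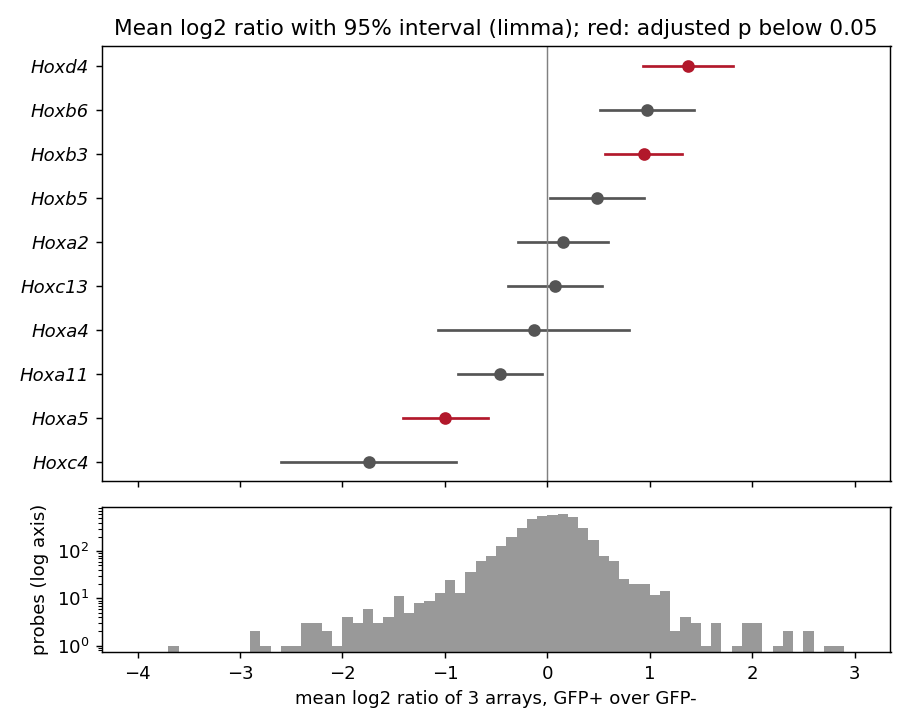
Upper panel: mean log2 ratio of each of the 10 Hox genes with its 95% interval from limma, red where the adjusted p was below 0.05. Lower panel: number of probes (log axis) by mean log2 ratio over all 4399 probes; Hoxd4 and Hoxc4 lie in its tails, while Hoxa2, Hoxc13 and Hoxa4 lie near its centre.

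Before adjustment for the number of probes, the 95% intervals of limma left out 0 for 7 of the 10 genes, and did so for 14.4% of all probes. They ran from 0.93 to 1.82 for Hoxd4, from 0.57 to 1.32 for Hoxb3, from -1.41 to -0.58 for Hoxa5 and from -2.60 to -0.89 for Hoxc4. For Hoxa4 the interval reached from -1.07 to 0.80, so that a difference of 2-fold in the negative direction lay inside it. For Hoxa2 (-0.29 to 0.59) and Hoxc13 (-0.38 to 0.53) it took in no difference of 2-fold. In order of mean the genes were Hoxd4, Hoxb6, Hoxb3, Hoxb5, Hoxa2, Hoxc13, Hoxa4, Hoxa11, Hoxa5 and Hoxc4. Of the 9 pairs of neighbours in this order, only Hoxb3 over Hoxb5 and Hoxa11 over Hoxa5 had array values that did not overlap. This order is a description: no pair of genes was tested, and with 3 arrays an exact sign-flip permutation test could not give p below 0.25.

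Genes of 1 paralog group did not share a direction in groups 4 and 5. In group 4, Hoxd4 was positive and Hoxc4 negative on all 3 arrays, and Hoxd4 exceeded Hoxc4 by 1.71, 4.10 and 3.54 on the log2 scale. Hoxa4 exceeded Hoxc4 by 1.77, 1.79 and 1.26, an evener gap than either gene's own ratios. In group 5, Hoxb5 was positive and Hoxa5 negative on every array, apart by 0.82, 1.81 and 1.82. By contrast, Hoxa10 and Hoxd10 of group 10 were both negative on arrays 2 and 3, and Hoxa11 and Hoxd11 of group 11 were both negative on array 1. Counted over all genes with a value, 6 lay in groups 9 to 13. The 5 genes of groups 9 to 11 (Hoxa10, Hoxa11, Hoxc9, Hoxd10 and Hoxd11) were negative on every array that gave a value. So were 23.8% of all 6526 probes with any value. Of these 5 genes only Hoxa11 had values on all 3 arrays. The 1 other gene, Hoxc13, was mixed. Of the 9 genes in groups 1 to 8, 5 were positive on every such array, 2 negative and 2 mixed, with 25.7% of all probes positive. The boundaries of these paralog ranges were set after the values were seen. The B cluster gave no value beyond group 6, so that for its genes cluster and low paralog number cannot be told apart.

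**Figure D3:**
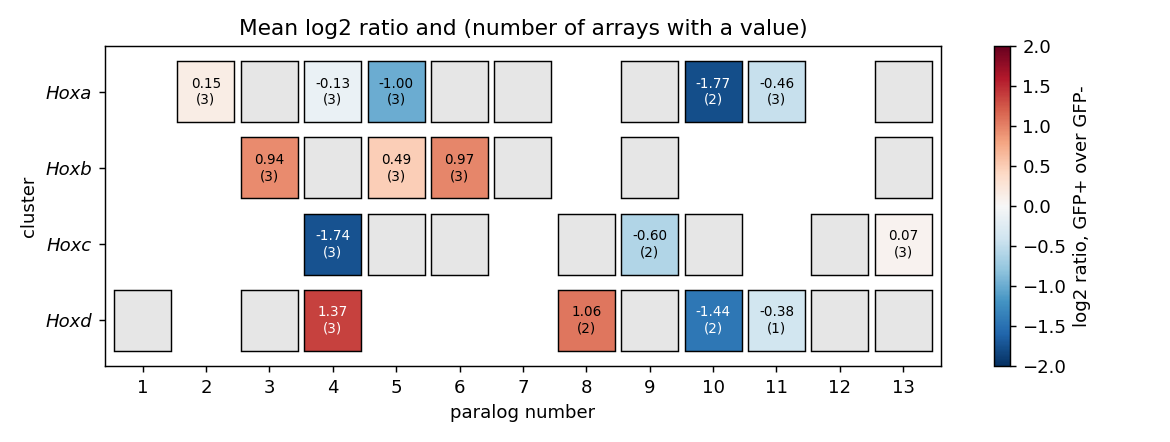
Clusters (rows) by paralog number (columns), coloured and labelled by the mean log2 ratio over the arrays with a value, with their number in parentheses; grey boxes have a probe and no value, and empty places have no gene or no probe in the annotation used. Cluster B is positive at groups 3, 5 and 6, and groups 9 to 11 are negative in clusters A, C and D.

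When genes with values on at least 2 arrays were fitted, 14 Hox genes among 5421 probes entered, and Hoxd10 (mean -1.44, limma adjusted p = 0.0316) and Hoxa10 (-1.77, limma adjusted p = 0.033) passed as lower, beside Hoxa5, Hoxb3 and Hoxd4. Hoxd8 (1.06, limma adjusted p = 0.136) and Hoxc9 (-0.60, limma adjusted p = 0.306) did not pass. In that fit 3.12% of all probes passed. Both genes that it added had values from arrays 2 and 3, the pair that correlated most closely, and array 1 gave none for them. Their adjusted p-values therefore rest on 2 arrays and on the variance that limma shares between probes. The 2 values of Hoxa10 lay further apart than those of Hoxd10, yet the unadjusted limma p was 0.000798 and 0.000734.

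Array 1 mattered for several genes. Of the 10 Hox genes, 7 (70%) had 1 sign on all 3 arrays, against 36% of all probes. The exceptions were Hoxa2, Hoxa4 and Hoxc13, in each of which array 1 stood against both others. Without array 1, 4 Hox genes were higher (Hoxd4, Hoxb3, Hoxb5 and Hoxb6) and 4 lower (Hoxa4, Hoxa5, Hoxa11 and Hoxc4), but 46.3% of all probes passed in that fit, so that 8 of 10 is to be read against this share. Without array 2, and likewise without array 3, Hoxd4 was higher and Hoxc4 lower, and Hoxa5 and Hoxb3 no longer passed: 3.07% and 1.89% of all probes passed in these fits, and limma adjusted p was 0.0811 and 0.441 for Hoxa5, and 0.0701 and 0.327 for Hoxb3. Hoxd4 passed whichever array was left out. With an ordinary one-sample statistic, which shares no variance between probes, 0 Hox genes passed after adjustment, and before it 3 were higher (Hoxb3, Hoxb6 and Hoxd4) and 1 lower (Hoxa5), while 12.1% of all probes had an unadjusted p below 0.05.

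**Figure D4:**
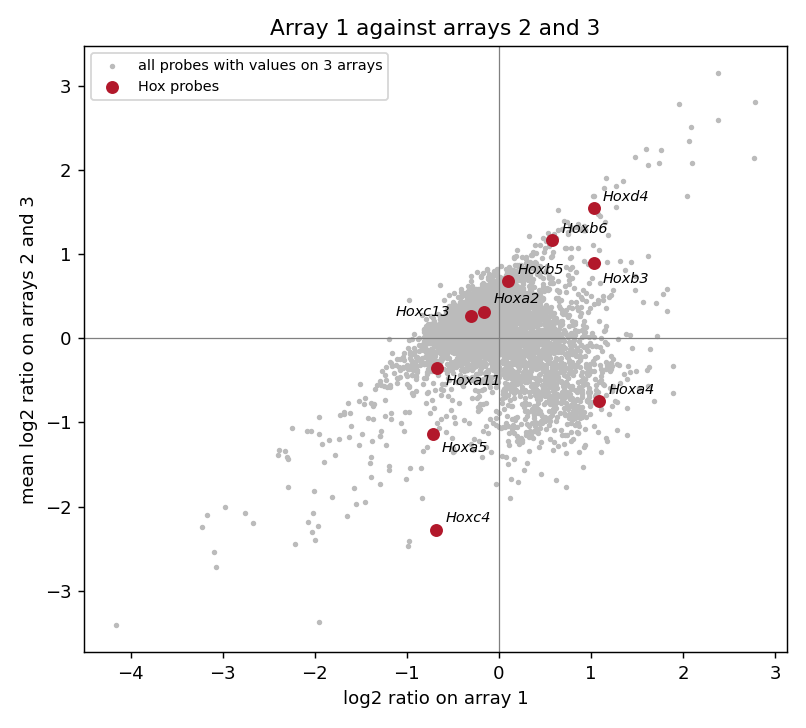
Log2 ratio on array 1 (horizontal axis) against the mean log2 ratio on arrays 2 and 3 (vertical axis) for all 4399 probes (grey) and the 10 Hox probes (red, named). Hoxd4, Hoxb6 and Hoxb3 lie in the upper right, Hoxa5 and Hoxc4 in the lower left, and Hoxa4 in the lower right, where array 1 was positive and the others negative.

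Distance over the 3 array ratios was taken to named genes only. Genes with only a clone or predicted-gene name were left out, and some of them lay closer. The named genes closest to Hoxd4 were Apoc1 (distance 0.163), Gstt2 (0.202) and Prss8 (0.266). Those nearest Hoxb3 were Spry1 (0.104), which damps growth factor receptor signals, Ldhb (0.143) and Ccl21c (0.166), a chemokine with near-identical gene copies that could share signal. Hoxb6 lay next to Cdca7l (0.0452), Hbegf (0.0756) and Ddt (0.107), and Hoxb5 next to Tspan13, Mea1 and Ppih, all within 0.0631. For Hoxa5 they were Phlda3 (0.173), Pth1r (0.182) and Rag2 (0.201), and for Hoxa11 Ncf4 (0.0278), Agmat (0.0397) and Ikbip (0.0983). Hoxc4 had no close match among the named genes: Doc2g was at 0.421, Mcm9 at 0.536 and Lst1 at 0.912. Hoxa4 lay nearest Ss18l2, Vps37a and Prm1, within 0.175, each of which was positive on array 1 and negative on the other two. Hoxa2 had Mxra7, Gria4 and Muc1 within 0.0474, and Hoxc13 had Lsm1, Gstk1 and Dpm3 within 0.0436, in the dense middle of the distribution.

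The genes that flank the clusters were examined as well. The 5 nearest protein-coding genes on each side of each cluster, a set chosen after the Hox values were known, gave 40 genes, of which 15 had values on all 3 arrays and 0 passed in limma (3 at an unadjusted p below 0.05, 1 by the ordinary statistic), beside 2.86% of all probes that passed and 14.4% with an unadjusted p below 0.05. The 15 genes had means between -0.79 and 0.45 and a median of 0.019. Next to cluster A, Skap2, an adaptor protein gene, had -0.89, -0.31 and -0.45 on arrays 1, 2 and 3 (mean -0.55 ± 0.30, limma adjusted p = 0.248). Hibadh, an enzyme of valine breakdown on the other side of that cluster, had 0.68, 0.26 and 0.43 (mean 0.45 ± 0.22, limma adjusted p = 0.294). Beside cluster D, Mtx2, a mitochondrial import protein, had 0.58, 0.35 and 0.20 (mean 0.38 ± 0.19, limma adjusted p = 0.38). Nfe2l1, a transcription factor gene near cluster B, had the lowest mean, -0.79 ± 0.27 (limma adjusted p = 0.0941), of opposite sign to the Hoxb genes. These 4 are examples picked with their values known.

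Of the genes that act with or upstream of Hox proteins or beside them in the kidney, 1 passed. Over 6 lists, 36 of 98 genes were measured on all 3 arrays. In the fit over 3915 genes, of which 2.78% passed, 0 rose and 1 fell. At an unadjusted p below 0.05, 4 were positive and 2 negative by limma, and 2 and 1 by the ordinary statistic. The shares over all probes in either direction were 14.4% by limma and 12.1% by the ordinary statistic. The 2 negative genes by limma were Wt1 and Hoxa11, which is also 1 of the 10 Hox genes. Among the TALE homeobox genes, 2 of 11 were measured. Pbx2, a DNA-binding partner of Hox proteins, had -0.32, 0.26 and 0.096 (mean 0.012 ± 0.30). The repressor Tgif1 had -0.13, 0.34 and 0.28 (mean 0.16 ± 0.26). Array 1 was negative and the others positive for both. The 13 measured Polycomb genes of 31 had a median of 0.129, with Cbx2, a reader of repressive histone methylation, at 0.39 ± 0.17 and Phc1 at 0.29 ± 0.39. The 9 measured trithorax genes of 18 had a median of -0.063, and the histone demethylase Kdm6a, at 0.42 ± 0.10, and Dpy30, at 0.36 ± 0.71, had the largest means.

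In the retinoic acid list, 6 of 18 genes were measured, with a median of -0.044. Aldh1a3, an enzyme that makes retinoic acid, had 0.92, 0.49 and 0.65 (mean 0.69 ± 0.22, limma adjusted p = 0.13), positive on every array. Crabp2, which carries retinoic acid to the nucleus, had 0.18, 0.92 and 0.67 (mean 0.59 ± 0.38, limma adjusted p = 0.245). Of the 8 Cdx, geminin and other regulators, 3 were measured with a median of 0.018, Gmnn at 0.21 ± 0.43 and the insulator protein Ctcf at 0.018 ± 0.31. Among 12 kidney genes set beside the group 11 paralogs, 3 were measured, and Wt1, a transcription factor of nephron progenitors and podocytes, fell (-1.85, -1.14 and -1.28, mean -1.42 ± 0.37, limma adjusted p = 0.0232). Hoxa11 of the same list had a ratio closer to 0 than Wt1 on every array.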

How the data were processed

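Each array held GFP+ and GFP- RNA in its 2 channels and formed 1 replicate of 1 group; nothing says the arrays came from separate pools, so every p-value reflects no more than the spread of these arrays, perhaps a technical one, and 3 arrays limit the precision. The deposited values are log2 ratios. Per the labels' protocols, images were read with Imagene 5.5, the control channel was corrected along a Lowess curve (20% of points per fit), and control values under 10 became 10, which can shrink large ratios. The table is described as filtered by a rule not given in the sources used here. Base 2 was settled from the numbers: 2 to the power of 99.97% of values was a whole number of thousandths within 0.01.

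Symbols came from the platform annotation, updated through gene identifiers to RefSeq (GRCm38.p6). The test of mean ratios was limma 3.58.1 (R 4.3.3; lmFit and eBayes against 0, two-sided, Benjamini-Hochberg over 4399 probes; list genes over 3915 genes, probes averaged). The fit was tested on simulated data whose arrays were drawn independently. That test does not cover the correlation of arrays 2 and 3 seen here. No dye swap was recorded, so dye bias of a single gene may stay inside its ratio. Homeobox genes resemble each other and could cross-hybridise; probe sequences were not used here. Named were all Hox genes with a value and measured TALE homeobox genes. In other lists, named genes were those that passed or otherwise the 2 of largest absolute mean. Named too were the 2 markers of largest absolute mean in each cell type, and Osr1 for its opposite sign. The 3 genes nearest each Hox gene were named, leaving out those with only a clone or predicted-gene name. Members and lists were chosen with earlier results of these data known.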

Additional observations from a re-analysis of the deposited data

How the results depend on the processing

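For the 10 Hox genes, 120 values under 12 other settings were compared with those reported: 85 kept direction and side of the threshold, 21 newly passed, 9 no longer passed and 5 changed sign. The sign changes were of Hoxa4 (-0.75 to 0.18 when 1 array was left out, positive without array 2 or 3, and 0.17 with arrays 2 and 3 averaged) and Hoxc13 (-0.045 to 0.26 when 1 array was left out, negative without array 3, and -0.019 with arrays 2 and 3 averaged); neither had passed. Hoxd4 passed in all settings except the ordinary statistic (adjusted p = 0.295). Hoxb6 and Hoxc4 also passed after scaling (limma adjusted p = 0.0483 and 0.0362) or quantile normalization (0.036 and 0.0189). With arrays 2 and 3 averaged, 1 Hox gene was higher (Hoxd4) and 1 lower (Hoxc4), and 32 probes were higher in the whole array. Lower Hox genes numbered 2 after scaling and after quantile normalization, and 3 with values on at least 2 arrays. Array weights from limma's default estimate, which did not converge, were 1.96, 14.2 and 0.036 for arrays 1, 2 and 3. Its gene-by-gene estimate, taken up after that was seen, gave 0.142, 1.38 and 5.10, the opposite order for arrays 2 and 3, so neither set of weights is a reliable guide. The gene-by-gene weights gave 6 higher and 4 lower Hox genes, 14 and 5 list genes, and 1597 and 1015 of all probes (reported: 58 and 68). The default ones, kept as an unplanned alternative after the data were seen, gave 3 and 2 Hox genes, with Hoxb6 and Hoxc4 past the threshold, and 198 and 140 probes. The ordinary statistic gave 0 and 0 Hox genes, 0 list genes lower, and 1 and 0 probes (532 at an unadjusted p below 0.05). Leaving out 1 array gave 1 to 4 Hox genes higher and 1 to 4 lower, 23 to 1225 probes higher and 60 to 810 lower, and 0 to 12 list genes higher and 1 to 4 lower, the highest each time without array 1. The cause of these changes was not tested. No paired analysis was possible because the arrays form 1 group and each ratio already pairs both fractions. Signal over background was not analysed here.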
